A study of Mus musculus with 2 samples.

Results

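Complement is a cascade of plasma proteins that marks cells and debris for clearance and calls in leukocytes. C1q, built from the chains of C1qa, C1qb and C1qc, recognises targets and starts the classical route. C3 is the component on which all routes converge and Cfb is the protease subunit of the alternative route. Serping1 inhibits the proteases that work with C1q, and C3ar1 and C5ar1 are the receptors for the cleavage fragments C3a and C5a. Macrophages are a known source of C1q outside the liver, and complement receptors are known on myeloid cells and osteoclast precursors in bone.

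These 8 genes, a fixed list, were all found among the 31055 features of both deposited matrices and were followed through the cells of the periosteum, the membrane on the outside of bone. The cells came from Prx1Cre;mTmG mice, in which Cre switches a cell and its progeny from membrane tdTomato to membrane EGFP. Prx1Cre acts in limb mesenchyme, so EGFP marks that lineage. The 2 libraries were 1 from the periosteum at day 3 after tibial fracture and 1 from uninjured periosteum, both of the same genotype and both grown from explants at 33 °C, with bFGF at 10 ng/mL and serum at 20%. The sources used here do not give the number of mice behind each library. With 1 library per group there was no replicate, so no test across samples could be made. All intervals below cover counting error only.

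The day 3 library held 16332 barcodes with 227191961 UMIs (unique molecules counted) and the uninjured library 4573 barcodes with 94034112 UMIs, and 3 barcodes occurred in both. After filtering, 12573 day 3 cells with a median of 7449 UMIs and 4269 uninjured cells with a median of 19397 UMIs remained. Xist, expressed from the inactive X chromosome of female cells, had a UMI in 69.6% of day 3 cells and 0.187% of uninjured cells. The difference in Xist cannot be told apart from the difference in injury.

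Cells were clustered without any complement gene and named from markers that hold none. Macrophage-like cells numbered 6418 at day 3 and 1181 in the uninjured library, osteoclast-like cells 374 and 31, and neutrophil-like cells 464 and 7. The day 3 macrophage-like cells lay in 7 clusters, whereas 1143 of the uninjured ones lay in cluster 3, which held 71 day 3 cells. EGFP lineage cells, from clusters with summed EGFP at 500 CPM or more (a gene's UMIs in the summed cells, scaled to depth), numbered 3682 at day 3 and 2827 in the uninjured library. Their 10 mesenchymal markers were all present and summed to 2521 CPM at day 3 and 4988 CPM in the uninjured library. Within them, cluster 17 (378 day 3 cells) and cluster 10 (623 uninjured cells) also held all 10 macrophage markers and Ptprc, the pan-leukocyte gene CD45, at 45.3 and 41.1 CPM. They are called mixed clusters here, and EGFP lineage values are given with and without them. Without them 3304 day 3 cells and 2204 uninjured cells remained.

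The 3 C1q genes lie side by side on chromosome 4, within 18675 bases and on the minus strand (GRCm38): C1qb at chr4:136880129-136886187, C1qc at chr4:136889804-136893065 and C1qa at chr4:136895917-136898803. C3 lies at chr17:57203970-57228136. The promoters of 5 of the 8 genes were in the RefSeq table used (GRCm38.p6), and 3 are shown because C1qb and C1qc varied together across clusters and C3 did not follow them. Each is read 5′ to 3′ towards the gene on the minus strand, from chr4:136886201-136886450, chr4:136893066-136893164 and chr17:57228137-57228386, and for C1qc only the 99 bases outside the annotated gene are shown. Capitals mark 2 motifs searched on both strands. They are AGGAAGT, letters found in sites of the myeloid factor PU.1 and seen here as ACTTCCT, and TTGCNNAA, letters of C/EBP sites.
C1qb: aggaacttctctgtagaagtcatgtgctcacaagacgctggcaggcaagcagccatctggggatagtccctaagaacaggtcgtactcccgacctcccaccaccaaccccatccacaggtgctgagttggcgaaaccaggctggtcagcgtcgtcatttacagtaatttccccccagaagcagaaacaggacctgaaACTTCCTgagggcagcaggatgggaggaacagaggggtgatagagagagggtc
C1qc: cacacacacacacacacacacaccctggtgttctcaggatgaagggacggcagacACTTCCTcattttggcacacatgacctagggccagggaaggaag
C3: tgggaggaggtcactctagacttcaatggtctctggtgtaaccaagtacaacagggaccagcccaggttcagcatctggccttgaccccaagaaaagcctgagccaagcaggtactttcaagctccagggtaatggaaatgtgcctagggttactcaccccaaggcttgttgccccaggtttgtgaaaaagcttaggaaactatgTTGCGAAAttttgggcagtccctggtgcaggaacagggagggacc
In the 250 bases before the RefSeq start, AGGAAGT began 53 bases before that of C1qb and 195 bases before that of C1qc. It also occurred at 190 and 72 bases before that of C5ar1. Both C5ar1 matches lay inside the annotated gene, since only the first 48 bases of that window lay outside it. AGGAAGT was not in the windows of C3 and C3ar1. TTGCNNAA was found in the C3 window alone of the 5, from 45 bases before the start. Of 32851 RefSeq promoters, 7.69% hold AGGAAGT and 9.56% hold TTGCNNAA. A match here describes the letters only, and whether any factor binds there was not tested.

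C1q was a macrophage transcript in both libraries, and its level in macrophage-like cells was lower at day 3. C1qb stood at 829 CPM in day 3 macrophage-like cells, against 2587 CPM in uninjured ones, which is 3.12-fold lower (95% interval 3.07 to 3.17). C1qc stood at 643 CPM at day 3 and 1699 CPM in the uninjured library, 2.64-fold lower (2.59 to 2.69). C1qa stood at 810 CPM in day 3 cells and 1320 CPM in uninjured cells, 1.63-fold lower (1.60 to 1.66). The fall was thus unequal among the chains, and that of C1qa stayed under 2-fold. With TMM scaling, which lowered all day 3 log2 ratios in these cells by 0.47, C1qa too passed 2-fold, at -1.17. Macrophage-like cells held 90.3% of all C1qa UMIs of retained cells at day 3 and 74.5% of those in the uninjured library, where the mixed cluster 10 held much of the rest.

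Of the 6 members at 10 CPM or more in either macrophage-like sum, C3 was 2-fold higher or more at day 3 and C1qb and C1qc 2-fold lower or more. Over all 8268 genes at that level 32.3% were 2-fold higher and 3.93% were 2-fold lower, with a median log2 ratio of 0.64, against -0.22 for the 6 members. The lower C1q levels thus ran against the general direction between these libraries. Over all retained cells 21.4% of genes were higher and 4.78% lower at day 3, and 5 of 7 members passed 2-fold. C3 and C3ar1 were higher, and C1qb, C1qc and Serping1 lower. The mix of cells differed in these sums. Macrophage-like cells made up 51.0% at day 3 and 27.7% in the uninjured library, and EGFP lineage cells 29.3% and 66.2%. The part of this mix in the 5 differences was not tested.

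The share of macrophage-like cells with a C1q UMI was lower at day 3 at equal depth too. After each cell was thinned to 3000 UMIs, 75.5% of 4584 day 3 cells had a C1qb UMI (exact interval 74.3 to 76.8), against 95.9% of 1109 uninjured cells (94.6 to 97.0), with 1834 and 72 shallower cells left out. Before thinning the shares were 73.5% and 96.2%, at median depths of 4670 and 10153 UMIs. All 3 chains were detected in 49.3% of thinned day 3 cells and 80.2% of thinned uninjured cells. In thinned neutrophil-like cells of day 3, which are not known to make C1q, 3.60% of 222 cells had a C1qb UMI.

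The day 3 macrophage-like clusters differed from each other in C1q. C1qb was lowest in cluster 21 (201 CPM) and cluster 7 (340 CPM), lay at 624, 760 and 786 CPM in clusters 0, 14 and 2, and was highest in cluster 1 (1167 CPM) and cluster 3 (1322 CPM). Cluster 21 was led by Mmp12, Il7r and Rgs1, and cluster 1 by Stab1, Mrc1 and other genes of scavenging macrophages. Cluster 3 was the 1 macrophage-like cluster found in numbers in both libraries. Within it C1qb stood at 1322 CPM in the 71 day 3 cells (interval 1163 to 1497 CPM), against 2617 CPM in the 1143 uninjured cells. C1qa in those cells stood at 552 CPM at day 3 and 1336 CPM in the uninjured library, and C1qc at 653 and 1717 CPM. The lower level was therefore also seen inside the shared cluster. Its 71 day 3 cells summed to 188327 UMIs and its 1143 uninjured cells to 12212661 UMIs, so the day 3 cells were shallower in mean UMIs per cell. The part of depth in this difference was not tested. The other day 3 clusters lay between 152 and 978 CPM for C1qa, all below the uninjured cluster 3.

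The mix of the chains varied as well. C1qb made up 20.8% of the C1q UMIs in cluster 7 (exact interval 19.4 to 22.2), 28.5% in cluster 0, 37.0% in cluster 2, 38.5% in cluster 21, 39.4% in cluster 1 and 40.6% in cluster 14. In cluster 3 it made up 52.3% at day 3 (47.7 to 56.9) and 46.2% in the uninjured library (45.8 to 46.5). The chains are counted by 3′ tags with unknown capture, so only the differences between clusters can be read. Clusters 7 and 0 were also the shallowest of the 7, with medians of 1801.5 and 3149 UMIs per cell, and the part of depth in this order was not tested.

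**Figure D1:**
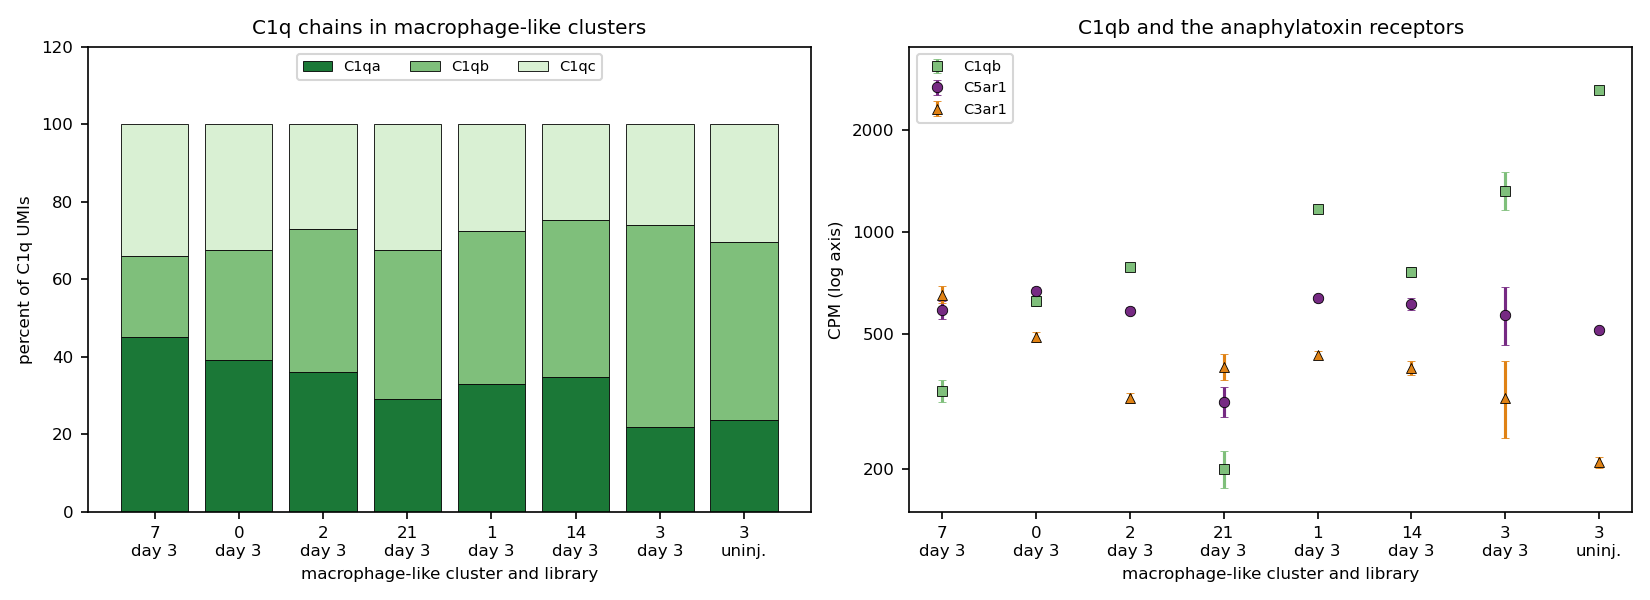
C1q chains and anaphylatoxin receptors in the macrophage-like clusters of each library. Left, bars show the percent of C1q UMIs from each chain, with C1qb from 20.8% in cluster 7 to 52.3% in cluster 3 at day 3. Right, points show CPM on a log axis with exact Poisson 95% intervals, and C1qb in uninjured cluster 3 lies above every day 3 cluster.

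Both receptors were macrophage transcripts too and did not share the lower level of C1q at day 3. C3ar1 stood at 416 CPM in day 3 macrophage-like cells, against 210 CPM in uninjured ones, 1.98-fold higher (1.90 to 2.07) and so just under the 2-fold line. C5ar1 stood at 610 CPM at day 3 and 510 CPM in the uninjured library, 1.20-fold higher (1.16 to 1.23). Under TMM scaling the log2 ratio of C3ar1 was 0.52 and that of C5ar1 was -0.21, so the direction of C5ar1 turns with the scaling. At 3000 UMIs per cell 63.3% of day 3 cells and 45.0% of uninjured cells had a C3ar1 UMI. Both receptors were detected together in 52.4% of thinned day 3 cells and 33.4% of thinned uninjured cells.

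Among day 3 macrophage-like clusters the receptors were more even than C1q. C5ar1 lay between 568 and 668 CPM in 6 of the 7 clusters and at 316 CPM in cluster 21. C3ar1 lay between 324 and 489 CPM in 6 of them and at 654 CPM in cluster 7, where C1qb was among the lowest. Cluster 3 held C3ar1 at 324 CPM at day 3 and 209 CPM in the uninjured library.

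C3, the central component, was a minor transcript of macrophage-like cells. It stood at 12.6 CPM (462 UMIs) in day 3 cells, against 1.13 CPM (14 UMIs) in uninjured cells, 11.2-fold higher (6.59 to 20.6). When complement genes were let into the clustering, C3 stayed under 10 CPM, which ended the call, and its log2 ratio was 2.08 in place of 3.48, while C3ar1 passed 2-fold at 1.26. The highest macrophage-like level at day 3 was 26.6 CPM in cluster 14, led by the interferon-response genes Rsad2 and Cxcl10. The lowest at day 3 was 6.32 CPM in cluster 21. Neutrophil markers summed to 559 CPM in day 3 macrophage-like cells and 39.1 CPM in uninjured ones, all 10 of them above 0 at day 3 and 3 of 10 at 0 in the uninjured library. Their part in the C3 difference was not tested.

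**Figure D2:**
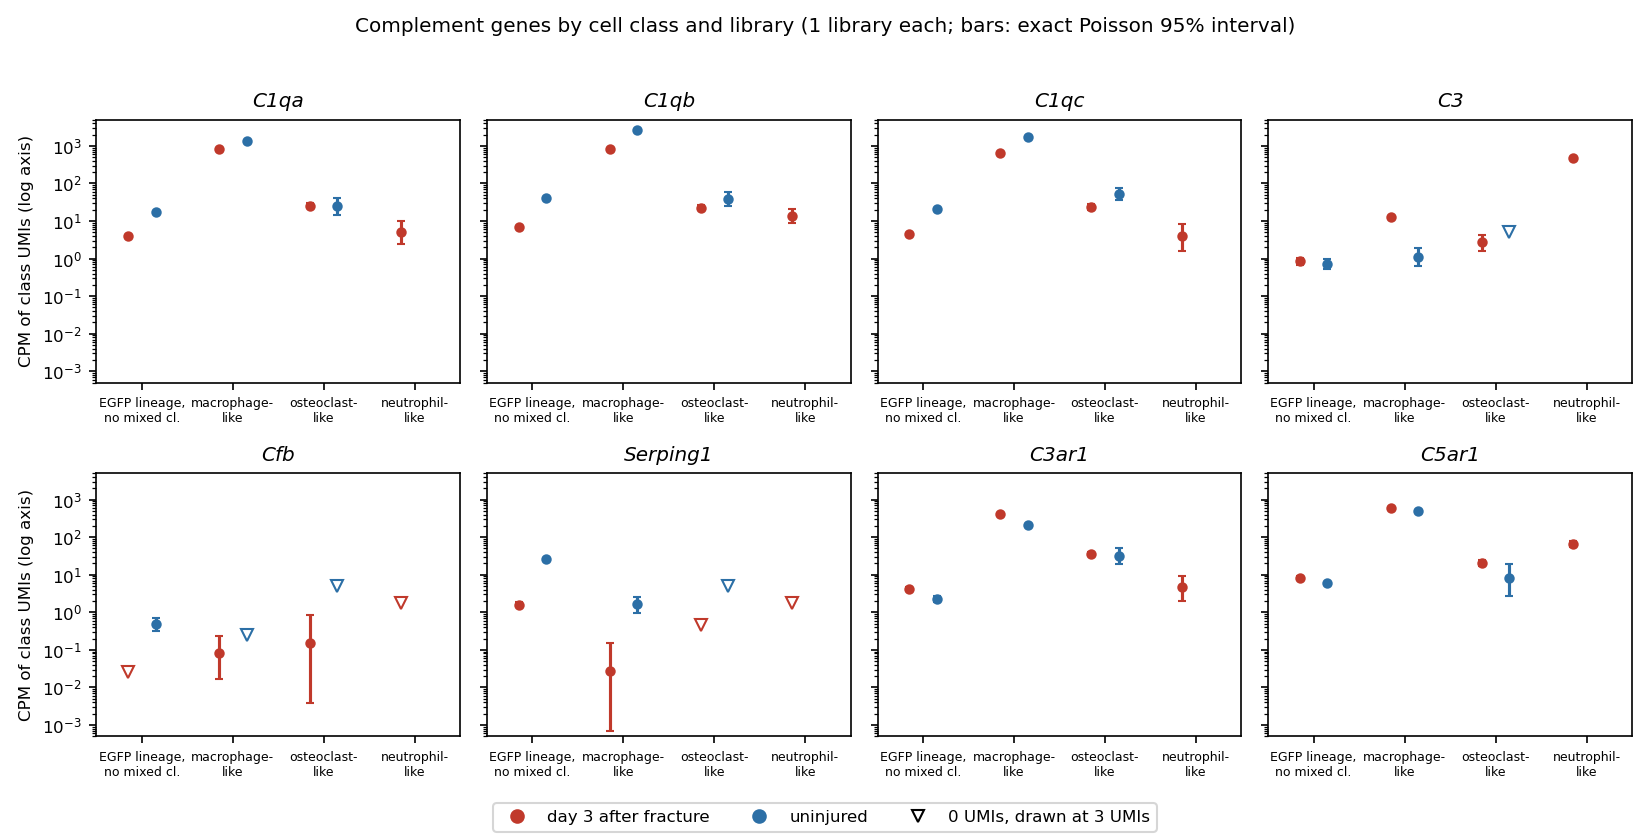
CPM of the 8 complement genes in 4 cell classes at day 3 after fracture and in the uninjured library, on a log axis with exact Poisson 95% intervals. Open triangles mark 0 UMIs, drawn at the level of 3 UMIs, and the 7 uninjured neutrophil-like cells are not drawn. C1q and the receptors are highest in macrophage-like cells, C3 in neutrophil-like cells at 486 CPM, and Serping1 in EGFP lineage cells.

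C3 was highest in neutrophil-like cells, which held 40.7% of all C3 UMIs of the day 3 library. These cells had 834 C3 UMIs at day 3, or 486 CPM, against 12.6 CPM in macrophage-like cells of the same library, 38.5-fold higher (34.3 to 43.2). At 3000 UMIs per cell 73.4% of 222 neutrophil-like cells had a C3 UMI (67.1 to 79.1; 242 shallower cells left out), against 3.29% of macrophage-like cells. Before thinning the shares were 68.5% and 5.41%, at median depths of 2904.5 and 4670 UMIs. The class is well marked, since its 10 neutrophil genes, led by Ngp, Camp and S100a9, summed to 358107 CPM. Macrophage markers, which include the shared myeloid gene Lyz2, summed to 9117 CPM in the same cells with none at 0, and their part in the values below was not tested. The 7 uninjured neutrophil-like cells held 7 C3 UMIs, too few to compare.

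The other members were low in these cells. Of 6 members tested between neutrophil-like and macrophage-like cells at day 3, 5 were at least 2-fold lower and C3 was higher, where 49.8% of all 8490 genes were lower and 7.16% higher. The median log2 ratio was -6.19 over the 6 members and -0.99 over all genes. C5ar1, the receptor through which C5a draws neutrophils, stood at 67.6 CPM, against 610 CPM in macrophage-like cells, 9.03-fold lower (7.52 to 10.9). C3ar1 stood at 4.66 CPM and C1qb at 14.0 CPM. As a share of the macrophage-like level, C5ar1 reached 11.1%, C3ar1 1.12%, C1qa 0.647%, C1qb 1.69% and C1qc 0.634%. The 13 macrophage and leukocyte genes measured beside them in the same cells had a median of 5.01%. They ran from 0.742% for Ms4a7 to 159% for Tyrobp, so they are no measure of macrophage transcripts alone. Serping1 and Cfb had 0 UMIs, which allows up to 1.75 CPM by 3 counts and 2.15 CPM by the exact interval.

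Osteoclast-like cells, marked by Acp5, Ctsk and Mmp9, held little of any member. At day 3 C1qa stood at 25.6 CPM, C1qb at 22.6 CPM and C1qc at 23.6 CPM, 27.3- to 36.6-fold lower than in macrophage-like cells. C3ar1 stood at 36.0 CPM, 11.6-fold lower (10.2 to 13.2), and C5ar1 at 20.8 CPM, 29.3-fold lower (24.8 to 35.0). All 6 members tested were at least 2-fold lower than in macrophage-like cells at day 3, where 21.7% of 8480 genes were lower and 8.66% higher. In the uninjured library all 5 tested were, where 20.4% of 7840 genes were lower and 12.4% higher. C3, with 18 UMIs and 2.75 CPM, was 4.58-fold lower (2.87 to 7.80). C3ar1 stood at 8.64% of its macrophage-like level at day 3 and 15.2% in the uninjured library, more than the C1q chains and C5ar1, while the 13 macrophage and leukocyte genes set beside it had medians of 15.6% and 19.0%. Cfb had 1 UMI and Serping1 0.

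Between the libraries the osteoclast-like values rested on 31 uninjured cells. C5ar1 was at least 2-fold higher at day 3 (20.8 CPM against 8.42 CPM from 5 UMIs; ratio 2.47, interval 1.03 to 7.73) and C1qc 2-fold lower (23.6 against 52.2 CPM; 2.22-fold, 1.46 to 3.27), where 21.2% of 7728 genes were higher and 3.83% lower. Neither call was stable. The log2 ratio of C5ar1 was 1.31, but -1.07 with complement genes in the clustering and -0.24 once the next cluster was added, and that of C1qc was -1.15 and -0.51 in thinned cells.

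That next cluster, of 711 day 3 cells and 211 uninjured cells, did not meet the rule for a name. It was led by Nfatc1, the master factor of osteoclast formation, and by Jdp2. Its best marker score was for the macrophage list, with 9 of those markers detected. That name was not given because the top 10 genes held Nfatc1, of the osteoclast list, and no macrophage marker. The C1q chains and receptors of this cluster lay between those of macrophage-like and osteoclast-like cells, and its C3 did not. C1qb stood at 98.1 CPM at day 3 and 332 CPM in the uninjured library, a ratio of 0.296 (0.271 to 0.323). C3ar1 stood at 118 CPM at day 3 and 59.5 CPM in the uninjured library, and C5ar1 at 79.0 and 74.1 CPM. C3 stood at 15.2 CPM at day 3, above 4.01 CPM in the uninjured cells, near the macrophage-like level at day 3 (ratio 1.20, 0.989 to 1.46) and over it in the uninjured library (3.55, 1.57 to 8.02). In it 4 of 6 members were 2-fold apart between the libraries, C3 higher and the C1q chains lower, where 24.4% of 7958 genes were higher and 2.63% lower. Added to the osteoclast-like cells, it gave the same 4 calls, against 20.9% of genes higher and 2.46% lower. Against macrophage-like cells of the same library, the C1q chains and both receptors were at least 2-fold lower in it. At day 3 that was 5 of 6 members tested, where 13.7% of genes were lower and 4.9% higher, and in the uninjured library 5 of 5, where 10.7% were lower and 5.3% higher.

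Serping1, the C1 inhibitor, was the member of the EGFP lineage, and it was far lower at day 3. These cells held 98.9% of its UMIs at day 3 and 98.8% in the uninjured library. Without the mixed clusters Serping1 stood at 1.58 CPM (179 UMIs) in day 3 cells, against 25.6 CPM (1469 UMIs) in uninjured cells, 16.2-fold lower (13.8 to 19.0). At 3000 UMIs per cell 0.259% of 3090 day 3 cells and 7.37% of 2198 uninjured cells had a Serping1 UMI. Before thinning the shares were 3.27% and 29.1%, at median depths of 32229.5 and 24186.5 UMIs. In macrophage-like cells, with 1 and 20 Serping1 UMIs in all, the thinned share was 0 of 4584 at day 3, which allows up to 0.0654% by 3 counts and 0.0804% by the exact interval, and 0.992% in the uninjured library.

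Serping1 was uneven within both libraries. In uninjured clusters it was highest in cluster 12, led by Ptn and Aspn (56.5 CPM), and cluster 11, led by Ly6c1 and Ptx3 (40.6 CPM). It was lower in cluster 18, led by the osteoblast genes Ibsp and Alpl (15.5 CPM), and in cluster 9, led by Dlk1 and Cdc20 (5.76 CPM). In the 88 uninjured cells of the contractile cluster 19 it was at 0 UMIs. At day 3 clusters 8, 4 and 5 had 1.44, 0.678 and 0.422 CPM, all below each of those 4 uninjured clusters. A single day 3 cluster stood apart. The 163 cells of cluster 22, chondrocyte-like by Col2a1, Acan and Col9a1, held 86 of the 179 Serping1 UMIs, or 412 CPM (interval from 329 CPM).

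The same chondrocyte-like cells held C3 at 148 CPM from 31 UMIs, second only to neutrophil-like cells among all clusters. Against the other EGFP lineage cells of day 3 outside the mixed clusters, Serping1 was 501-fold higher (369 to 679; 0.822 CPM in the others) and C3 258-fold higher (163 to 402; 0.575 CPM). Of 6 members tested 5 were 2-fold higher, where 18.3% of 8566 genes were higher and 17.2% lower, but the C1q chains among them had 3 UMIs each and intervals that span 1. Cluster 22 was shallow, with a median of 1170 UMIs per cell, and had no uninjured cell. Without it the lower Serping1 of day 3 EGFP lineage cells was 31.1-fold (25.2 to 38.8). When every cell was weighted alike, the log2 ratio of Serping1 over all EGFP lineage cells was -0.71 in place of -4.04, under 2-fold. Their C3 was then at 2.31 in place of -0.34.

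**Figure D3:**
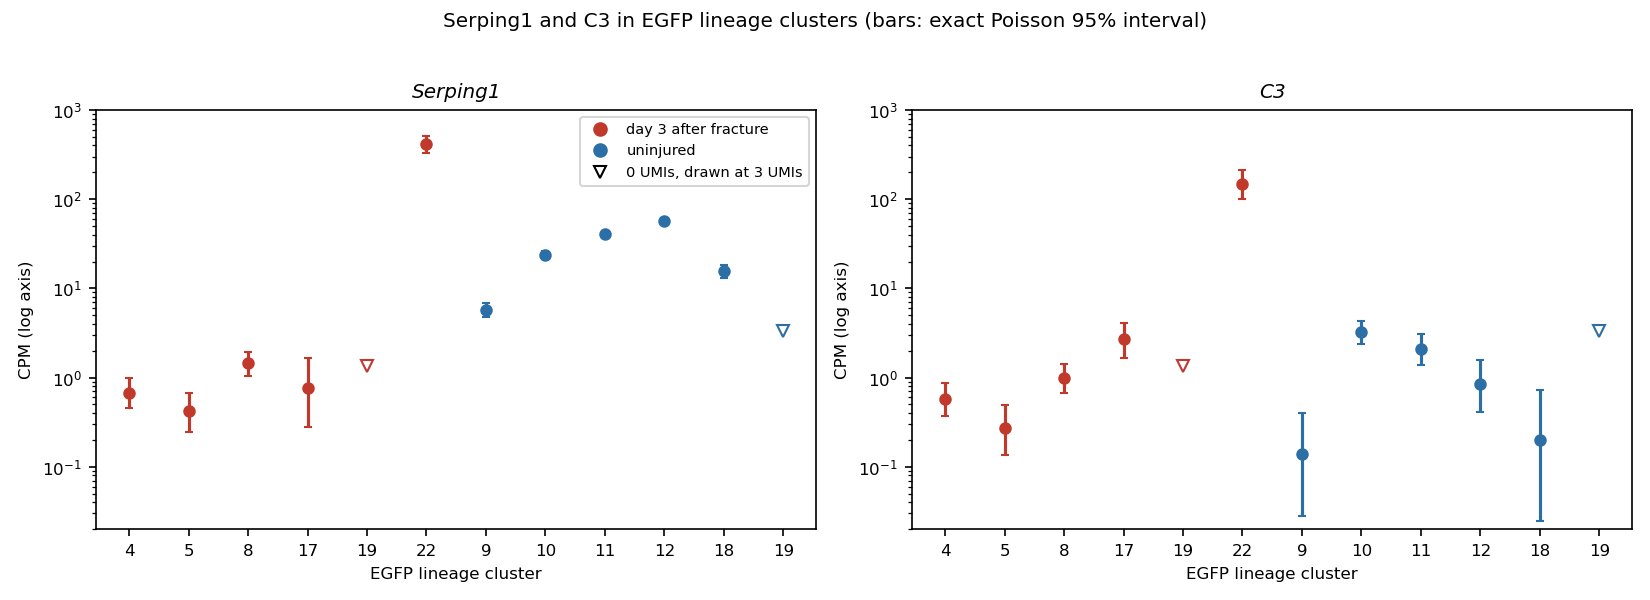
Serping1 and C3 in each EGFP lineage cluster, in CPM on a log axis with exact Poisson 95% intervals, day 3 clusters on the left of each panel and uninjured clusters on the right. Cluster 22 at day 3 lies above all others for both genes, at 412 CPM for Serping1 and 148 CPM for C3. The other day 3 clusters lie below the uninjured clusters 9, 10, 11, 12 and 18 for Serping1.

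C3 and Cfb were otherwise near the limit of detection in the EGFP lineage. C3 stood at 0.847 CPM at day 3 and 0.731 CPM in the uninjured library without the mixed clusters, a ratio of 1.16 (0.799 to 1.71). With the chondrocyte-like cluster left out too, C3 stood at 0.575 CPM at day 3, a ratio of 0.786 (0.525 to 1.19). Both intervals include 1. Its highest uninjured level outside the mixed cluster was 2.09 CPM in cluster 11, against 1.13 CPM in uninjured macrophage-like cells. Without the mixed clusters Cfb, at chr17:34856374-34862518, had 0 UMIs at day 3 and 28 in the uninjured library, or 0.487 CPM. With the 0 set to a floor of 3 UMIs over the group, Cfb was 18.4-fold lower at day 3. The exact interval allows a smaller difference, with a ratio of up to 0.0714. All 34 Cfb UMIs of the uninjured library were in EGFP lineage cells, 17 of them in cluster 11. At day 3 it had 4 UMIs, 3 of them in macrophage-like cells and 1 in osteoclast-like cells. An annotated readthrough gene, Gm20547, overlaps Cfb on the same strand and has 0 UMIs in both libraries, so reads shared by both may have been left out and the Cfb level is uncertain.

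C1q and the receptors were also counted in EGFP lineage cells, at a small part of the macrophage-like level. With the mixed clusters, C1qb stood at 11.6 CPM at day 3 and 151 CPM in the uninjured library, C1qa at 10.4 and 67.7 CPM, C1qc at 9.75 and 104 CPM, C3ar1 at 8.17 and 13.5 CPM, and C5ar1 at 13.3 and 26.9 CPM. Of the 6 members tested, 5 were at least 2-fold lower at day 3, namely the C1q chains, Serping1 and C5ar1, where 6.73% of 8248 genes were lower and 16.5% higher. Without the mixed clusters C1qb stood at 6.89 CPM at day 3 and 40.6 CPM in the uninjured library, 5.90-fold lower (5.44 to 6.40). C1qa was then at 3.93 CPM at day 3 and 17.5 CPM in the uninjured library, 4.47-fold lower, and C1qc 4.80-fold lower (4.32 to 5.33). All 4 members tested were lower, the C1q chains and Serping1, where 6.33% of 8119 genes were lower and 17.2% higher.

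The receptors did not keep their direction. Without the mixed clusters C5ar1 stood at 8.42 CPM at day 3 and 5.85 CPM in the uninjured library, and its log2 ratio was 0.53 in place of -1.01. C3ar1 stood at 4.28 CPM at day 3 and 2.23 CPM in the uninjured library, a ratio of 1.92 (1.58 to 2.35).

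These levels lay near those of other macrophage and leukocyte transcripts in the same cells, and C1qa and C1qc at day 3 lay below all 13 of them. At day 3 C1qa stood at 0.485%, C1qb at 0.832%, C1qc at 0.696%, C3ar1 at 1.03% and C5ar1 at 1.38% of their macrophage-like level. The 13 macrophage and leukocyte genes had a median of 1.11% there, from 0.749% for Msr1 to 8.28% for Cd14. In the uninjured library the members stood at 1.33%, 1.57%, 1.26%, 1.06% and 1.15% in the same order, and the 13 genes had a median of 1.26%, with Ms4a7 lowest at 0.793% and Cd14 highest. The 10 macrophage markers summed to 142 CPM in these cells at day 3 and 312 CPM in the uninjured library, with none at 0 in either. In the mixed clusters the shares were higher for members and other genes alike. C1qb stood at 9.62% of its macrophage-like level in cluster 17 at day 3, where the 13 genes had a median of 12.4%, and at 22.9% in the uninjured cluster 10, where they had a median of 28.5%. Whether EGFP lineage cells make any C1q of their own was not tested.

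**Figure D4:**
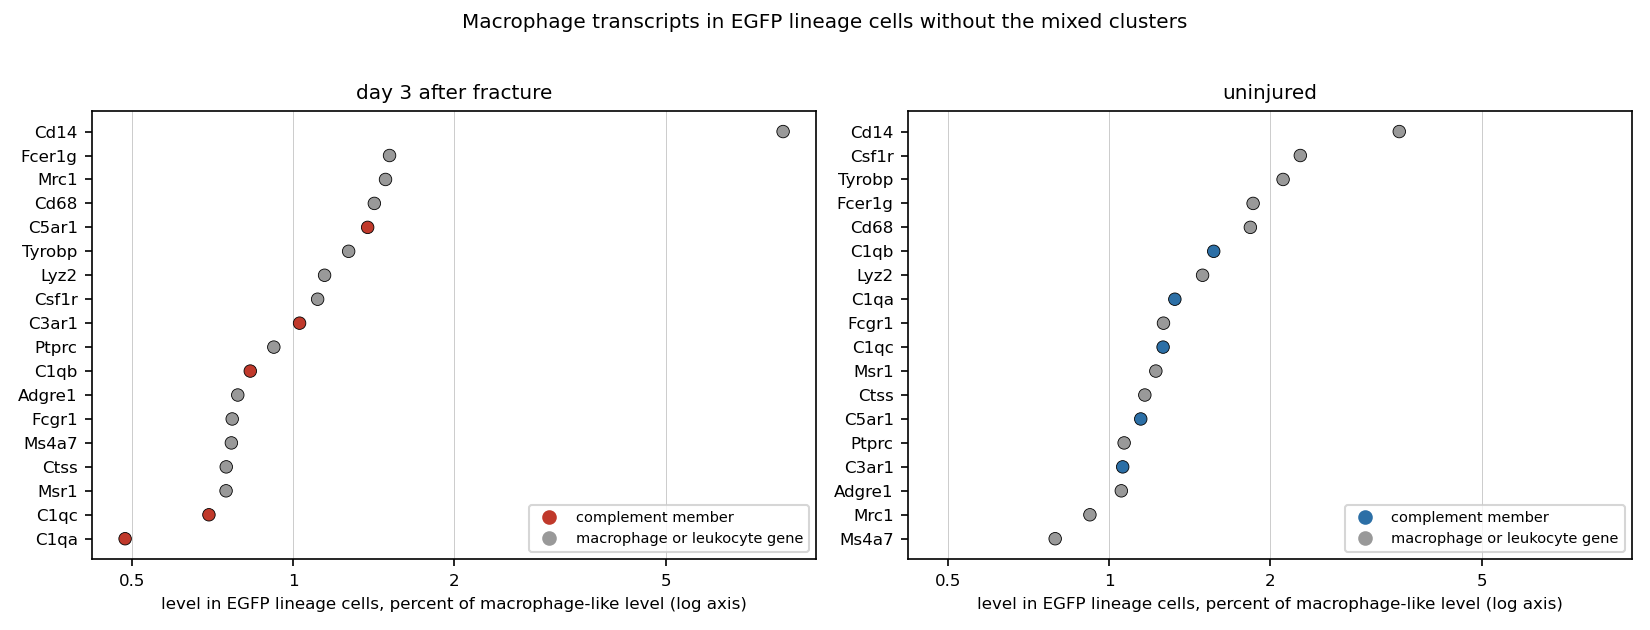
Level in EGFP lineage cells without the mixed clusters, as a percent of the level in macrophage-like cells of the same library (log axis), for 5 complement members in colour and 13 macrophage and leukocyte genes in grey. At day 3 the members lie between 0.485% and 1.38%, in the uninjured library between 1.06% and 1.57%, within or below the spread of the grey points.

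Across 27 cluster-by-library sums of at least 50 cells the members fell into groups. Pearson correlation of log2(CPM + 1) was 0.99 between C1qa and C1qc, 0.98 between C1qb and C1qc and 0.96 between C3ar1 and C5ar1. It was 0.90 between C1qa and either receptor and 0.20 between C1qa and C3. Among 6273 other genes the most like C1qa after the other chains was Tmem106a (0.96), the most like C1qb was Aif1 (0.96), and the most like C1qc was the chemokine gene Pf4 (0.95). C3ar1 was most like the scavenger receptor Msr1 (0.99), C5ar1 like the receptor Tlr13 (0.97), and C3 like the kinase gene Stk26 (0.91). Serping1 was most like the matrix gene Prelp (0.98), and Cfb, with few UMIs, like Slc1a3 (0.69). These sums share libraries and depth, so the values are descriptions.

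The wider pathway list held 40 further genes, few of them at 10 CPM or more. In EGFP lineage cells without the mixed clusters, where 6.33% of all genes were lower and 17.2% higher, 2 of 8 tested were at least 2-fold lower at day 3, the C1 proteases C1ra (0.856 against 12.1 CPM, 14.1-fold) and C1s1 (1.12 against 13.0 CPM, 11.6-fold), which Serping1 inhibits. There 2 were higher, the lectin route protease Masp1 (43.3 against 17.1 CPM, 2.53-fold) and Cd93, a receptor once linked to C1q (1.53 CPM in the uninjured library, 7.17-fold). With the mixed clusters 3 of 10 were lower, where 6.73% of all genes were, and 1 was higher, where 16.5% were. C1ra, C1s1 and Masp1 were called there too, Cfp, which stabilises the alternative route protease, was lower (7.11 against 21.0 CPM), and Cd93 was not called (14.3 against 8.96 CPM, 1.60-fold). The chondrocyte-like cells of cluster 22 again differed, with C1ra at 43.1 CPM and C1s1 at 57.5 CPM from 9 and 12 UMIs. C4b, the classical component cleaved next, had 7 UMIs there, or 33.5 CPM.

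In macrophage-like cells 3 of 9 tested passed 2-fold upwards at day 3 and 0 downwards, near the shares over all genes (32.3% and 3.93%). They were C5ar2, the second C5a receptor (35.4 against 11.7 CPM, 3.03-fold), Itgam, a subunit of the receptor for bound C3 fragments (350 against 116 CPM, 3.03-fold), and Cd93 (256 against 118 CPM, 2.17-fold). In neutrophil-like cells of day 3 Fcnb, a ficolin of the lectin route, stood at 693 CPM, against 0.328 CPM (12 UMIs) in macrophage-like cells. Of 10 tested it alone was higher and 5 were lower, near the shares over all genes (7.16% and 49.8%). In osteoclast-like cells Cd59a, which blocks the terminal complex, stood at 53.7 CPM at day 3, against 16.4 CPM in macrophage-like cells, 3.28-fold higher. C1qbp, which binds C1q, was 2.14-fold higher. Lower than in macrophage-like cells of day 3 were 5 of the 9 tested, where 21.7% of 8480 genes were lower and 8.66% higher. They were Cd93 by 26.2-fold, C5ar2 by 21.1-fold, Colec12 by 5.47-fold, Itgam by 4.38-fold and Cfp by 3.15-fold. Between the libraries 1 of 8 was higher in day 3 osteoclast-like cells, Colec12 (76 UMIs against 3, 2.30-fold, interval 0.758 to 11.4). There 1 was lower, Fcna (8.26 against 16.8 CPM, ratio 0.491, interval 0.247 to 1.08). Over all genes 21.2% were higher and 3.83% lower, and both intervals include 1.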

How the data were processed

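The deposited matrices give UMI counts for each gene in each barcode, as whole numbers that the authors did not normalize. Per the submitters' processing notes, Cell Ranger, Seurat 4.0.1 and mm10 were used. The sources used here do not say how cells were called. The labels name the molecule as genomic DNA and describe culture to 80% confluence, while the design text speaks of no expansion.

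Barcodes under 500 genes or 1000 UMIs (1412 at day 3, 69 uninjured) and then those over 10% mitochondrial UMIs (457 and 73) were removed. Scrublet marked 0 cells by its own threshold, so the top scores were removed at 0.8% per 1000 barcodes (1890 and 162). Clustering (scanpy 1.11.5, leidenalg 0.10.2) used 2000 variable genes less 18 complement genes, 30 components, 15 neighbours and resolution 1, without integration, and gave 24 clusters. Clusters were named "-like" from marker lists by the best mean score with at least 3 markers detected in 10% of cells, unless another list led the top 10 genes. UMIs were summed per class and library and given as CPM. A ratio is day 3 over uninjured, or the first class over the second, with an exact conditional binomial 95% interval. A call needs 10 CPM in the higher sum and a 2-fold ratio. A count of 0 was set to 3 UMIs. Levels have exact Poisson intervals and shares exact Clopper-Pearson intervals. No p-value was computed, since each group is 1 library. TMM factors came from edgeR, and Python 3.11.15 with scipy 1.17.1 did the rest.

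Named genes were the 8 members, pathway genes taken mainly from those that passed 2-fold, and genes from the 3 most like each member. The plan was to name the pathway genes with the 2 highest and 2 lowest ratios in each class. That plan was not kept in every class. Members and lists were chosen with earlier results of these data known. The mixed clusters, the chondrocyte-like cluster and C1ra, C1s1 and C4b in it were singled out after values were seen. The call rule was checked on simulated counts with known ratios. Some genes of the lists are not reported here and enter no pathway count or panel median.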

Additional observations from a re-analysis of the deposited data

How the results depend on the processing

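No paired analysis was possible because each group is 1 library, and for the same reason no library could be left out. Of 369 single-gene values recomputed under 17 other settings, 231 stayed within their interval, 133 moved and 5, all of called members, changed direction. A change of direction was counted only for members called under the main settings. Members not called there could change sign and still be counted as within their interval or moved. Among them, C5ar1 in macrophage-like cells ran from -0.21 to 0.52 in log2 ratio, and C3 in EGFP lineage cells from -1.05 to 2.31. The setting without the 10 CPM minimum can change calls but no ratio, so its 27 values, all among the 231, could not move. The count of members 2-fold apart between the libraries in EGFP lineage cells was 5, and 3 with every cell weighted alike. In osteoclast-like cells it was 2, against 1 with every cell weighted alike, in thinned cells, in cells gated on marker UMIs and without cycling cells. It was 4 there with complement genes in the clustering, at resolution 0.5 and with the Nfatc1 cluster. The counts in macrophage-like cells (3) and between neutrophil-like and macrophage-like cells (6) stayed within 1.5 times. The log2 ratio of C5ar1 in EGFP lineage cells, -1.01, was 0.50 in gated cells, 0.53 without the mixed clusters and 0.52 without those and the chondrocyte-like cluster. In osteoclast-like cells it was 1.31, and -1.07 with complement genes in the clustering and -0.24 with the Nfatc1 cluster. The cause was not tested. C1q stayed lower at day 3 in EGFP lineage and macrophage-like cells under every setting, with C1qb from -4.36 to -2.46 and from -2.11 to -1.29. TMM moved all log2 ratios by -0.47 in macrophage-like cells, -0.28 in osteoclast-like cells and 0.77 between neutrophil-like and macrophage-like cells. The mixed-cluster, chondrocyte-like, cluster-weighting, shallowest-cluster and Nfatc1 settings were chosen after seeing the data. Depth limits Cfb in all cells and every member in uninjured osteoclast-like and neutrophil-like cells.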

Other observations

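Clusters 13, 20 and 23, outside the 4 classes and with nearly all of their cells from day 3, carried members too. In cluster 13, 517 day 3 cells led by the monocyte genes Ccr2 and Ly6c2, C3 stood at 64.6 CPM, above every macrophage-like cluster of day 3. C1qb made up 61.6% of its C1q UMIs (60.0 to 63.2), a larger share than in any macrophage-like cluster, and stood at 623 CPM against 127 CPM for C1qa. C5ar1 stood at 320 CPM and C3ar1 at 233 CPM there. In cluster 20, 288 myeloid precursor-like cells of day 3 led by Prtn3, Ctsg and Mpo, C3 stood at 62.2 CPM, C1qb at 44.1 CPM and C5ar1 at 17.6 CPM. In cluster 23, 119 dendritic-like cells of day 3 led by Cd74 and H2-Aa, C1qb stood at 1059 CPM, close to macrophage-like cluster 1 with 1167 CPM, while C3ar1 stood at 132 CPM and C5ar1 at 197 CPM, below every macrophage-like cluster of day 3. Serping1 and Cfb had 0 UMIs in the day 3 cells of all 3 of these clusters.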
